A study of Homo sapiens with 6 samples.

Results

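The Sprouty, Spred and ETV feedback genes are 10 genes of the receptor tyrosine kinase and ERK pathway: SPRY1, SPRY2 and SPRY4, SPRED1, SPRED2 and SPRED3, the PEA3 factors ETV1, ETV4 and ETV5, and PHLDA1. They were chosen by name, with earlier results of these data known. A probe set counted as theirs when the array's annotation gave it exactly 1 gene symbol and that symbol was one of the 10. All 10 were measured, of 19775 genes on the array that have their own probe set, by 29 of 54613 probe sets. RNA was hybridized to Affymetrix expression arrays from KKU-100 cells, a line from a poorly differentiated cholangiocarcinoma, and from HuccT1 cells, a line from a bile duct carcinoma that the study writes as HuCCT1. Each line was treated with solvent, with a low dose or with a high dose of regorafenib, an oral inhibitor of several kinases that include vascular endothelial, platelet-derived and fibroblast growth factor receptors and RAF kinases. The labels give the doses as 1 μM and 10 μM, and the study's text gives other, lower doses, so the treatments are named low and high dose. The labels also describe stably transduced cells under puromycin selection, solvent arrays included, without a construct. There was 1 array for each line and treatment, so a difference between a dose and its solvent array has no replicate check and no p-value, and the low and the high dose are set against the same solvent array.

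Sprouty and Spred proteins are inhibitors that cells make in answer to growth factor signalling. Sprouty proteins dampen the signal between receptor tyrosine kinases and ERK, and Spred proteins bring neurofibromin, an inactivator of RAS, to the cell membrane. The PEA3 factors are transcription factors of the ETS family whose genes are switched on by fibroblast growth factor and ERK signalling, in part by relief from the repressor CIC. PHLDA1 is a pleckstrin homology-like protein that growth factors induce and that has been described as a brake on receptor tyrosine kinases.

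Promoter windows of 4 genes are shown because SPRY2, SPRY4 and PHLDA1 were lower in all 4 comparisons with solvent, whereas ETV1 was lower only in the KKU-100 comparisons. Each is the 250 bases upstream of a transcript start on the minus strand, from RefSeq on GRCh38.p14: chr13:80341127-80341376 for SPRY2, chr5:142324248-142324497 for SPRY4, chr7:13991426-13991675 for ETV1 and chr12:76031777-76032026 for PHLDA1. Capitals mark matches to the motif letters searched.
SPRY2: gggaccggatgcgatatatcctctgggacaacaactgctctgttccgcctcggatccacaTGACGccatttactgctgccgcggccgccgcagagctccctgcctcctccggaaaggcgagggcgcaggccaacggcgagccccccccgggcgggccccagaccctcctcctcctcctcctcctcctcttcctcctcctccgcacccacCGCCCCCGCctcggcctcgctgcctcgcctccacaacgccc
SPRY4: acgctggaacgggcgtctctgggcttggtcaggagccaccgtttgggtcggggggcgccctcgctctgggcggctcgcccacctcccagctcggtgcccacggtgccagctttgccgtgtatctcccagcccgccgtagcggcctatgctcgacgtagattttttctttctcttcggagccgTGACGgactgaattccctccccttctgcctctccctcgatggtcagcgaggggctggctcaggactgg
ETV1: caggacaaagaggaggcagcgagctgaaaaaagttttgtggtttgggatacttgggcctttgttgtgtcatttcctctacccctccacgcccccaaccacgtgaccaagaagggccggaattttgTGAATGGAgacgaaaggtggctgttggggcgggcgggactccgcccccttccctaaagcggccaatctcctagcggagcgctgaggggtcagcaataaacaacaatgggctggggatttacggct
PHLDA1: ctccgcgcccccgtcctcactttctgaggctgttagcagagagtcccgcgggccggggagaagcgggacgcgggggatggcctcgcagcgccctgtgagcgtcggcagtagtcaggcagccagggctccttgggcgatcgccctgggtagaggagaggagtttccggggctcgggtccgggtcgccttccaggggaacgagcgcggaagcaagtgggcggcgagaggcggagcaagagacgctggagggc
The capitals are the short CRE TGACG in SPRY2 and SPRY4, the EGR variant GCGGGGGCG on the other strand in SPRY2, and the CIC variant TGAATGGA, 125 bases upstream of the start, in ETV1. The PHLDA1 window held no match. SPRY2 had 3 windows and ETV1 had 6, and 1 of each, a window with a match, is printed. SPRED2, also lower only in KKU-100, had 2 windows, which held no match and are not printed. The SPRY2 windows not printed held no match. Of the ETV1 windows not printed, some held TGACG, some held no match and none held the CIC variant. Windows were at hand for 8 of the 10 genes, those other than ETV4 and ETV5, and some genes had more than 1. A gene was counted when any of its windows matched, whereas the percentages are shares of single windows. The counts of genes and these percentages are thus unlike measures and cannot be compared directly. On both strands, TGACG was found for 3 of these 8 genes (SPRY2, SPRY4 and ETV1) and in 21.2% of all 35116 windows of the same length. GCGGGGGCG was found for 2 (SPRY1 and SPRY2) and in 4.72% of windows. One gene each matched the ETS letters CCGGAAG (SPRY1; 8.52% of windows), the AP-1 letters TGANTCA (SPRED3; 6.57%), the CIC letters TGAATGAA (SPRED3; 1.4%) and TGAATGGA (ETV1; 0.832%). No window of the 8 genes held TGACGTCA, which contains TGACG, or GGAATG, GCGTGGGCG or the CArG box, found in 1.65%, 11.9%, 0.72% and 1.16% of all windows. A match is a run of letters and not a measured binding site.

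The deposited values are linear signal intensities, which were log2 transformed without further scaling, and the median signals of the 6 arrays lay between 28.8 and 29.3. The probe set of highest mean signal stands for a gene, and genes were compared in a line when that probe set reached the median level of all probe sets there, a signal of about 28.9 in KKU-100 and 29.1 in HuccT1. All 10 genes passed this filter in both lines, as did 24 of the 29 probe sets. A gene is called lower or higher where its signal moved past 1.5-fold, the cutoff used in the study. Of the biliary markers, KRT8 and KRT18 were high in both lines, and SOX9, a factor of bile duct cells, was lower in 3 of 4 comparisons (log2 fold changes of -0.75 under the high dose in KKU-100, and -1.03 and -1.13 in HuccT1). KRT7 read 917 to 1227 in KKU-100, against 10354 to 11038 in HuccT1. KRT19 read only 8.62 to 11.1 and EPCAM 8.95 to 11 in KKU-100, below the filter, against 7654 to 9321 and 6432 to 6682 in HuccT1. Of 8 markers of other cell types, 3 passed the filter in each line, their whole list summed to signals of 841 to 1103 in KKU-100 and 299 to 329 in HuccT1, and PTPRC, CDH5, ALB and APOA1 were below it in both. COL3A1, a collagen of fibroblasts, made up most of the KKU-100 sum, at 538, 779 and 548 with solvent, low and high dose, against 8.63, 6.52 and 8.06 in HuccT1. The part of these markers in the results was not tested. All 6 housekeeping genes stayed within 1.5-fold in every comparison.

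Most of the feedback genes were lower under regorafenib in KKU-100, and about as many were lower as not in HuccT1. In KKU-100, 8 of 10 were lower under the low dose, against 7.32% of the 12694 genes tested, and the same 8 under the high dose, against 4.86%. SPRY1 was higher under the high dose there, as were 9.44% of genes. In HuccT1, 5 of 10 were lower under the low dose (ETV4, PHLDA1, SPRED1, SPRY2 and SPRY4), against 3.32% of 12789 genes, and 5 under the high dose (ETV4, PHLDA1, SPRY1, SPRY2 and SPRY4), against 6.44%. SPRY2, SPRY4, ETV4 and PHLDA1 were lower in all 4 comparisons, as were 0.399% of the 12033 genes tested in both lines. The median log2 fold change of the 10 genes was -1.09 under the low and -1.27 under the high dose in KKU-100, where all genes had medians of 0.06 at both doses. It was -0.60 at each dose in HuccT1, where all genes had medians of 0.02. Past 2-fold, 6 genes were lower under the low dose in KKU-100, against 2.7% of all genes, and 7 under the high dose, against 1.43%. In HuccT1 past 2-fold, 2 were lower under the low dose (SPRY2 and SPRED1), against 0.618%, and 1 under the high dose (SPRY2), against 1.94%.

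**Figure D1:**
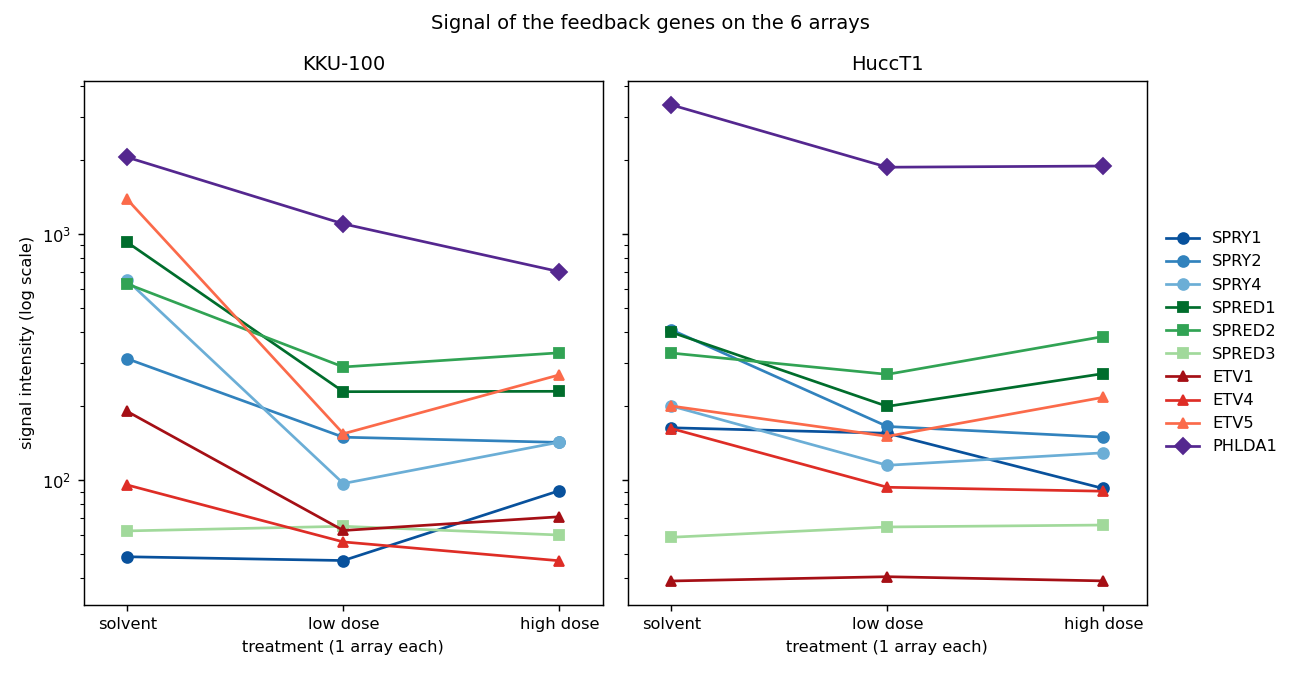
Signal (log axis) of each of the 10 genes on the solvent, low-dose and high-dose arrays of KKU-100 (left) and HuccT1 (right), 1 array per point. ETV5 and SPRY4 start high in solvent-treated KKU-100, at 1384 and 649, and lie at 155 and 97.0 under the low dose, while SPRED3 is flat in both lines.

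**Figure D2:**
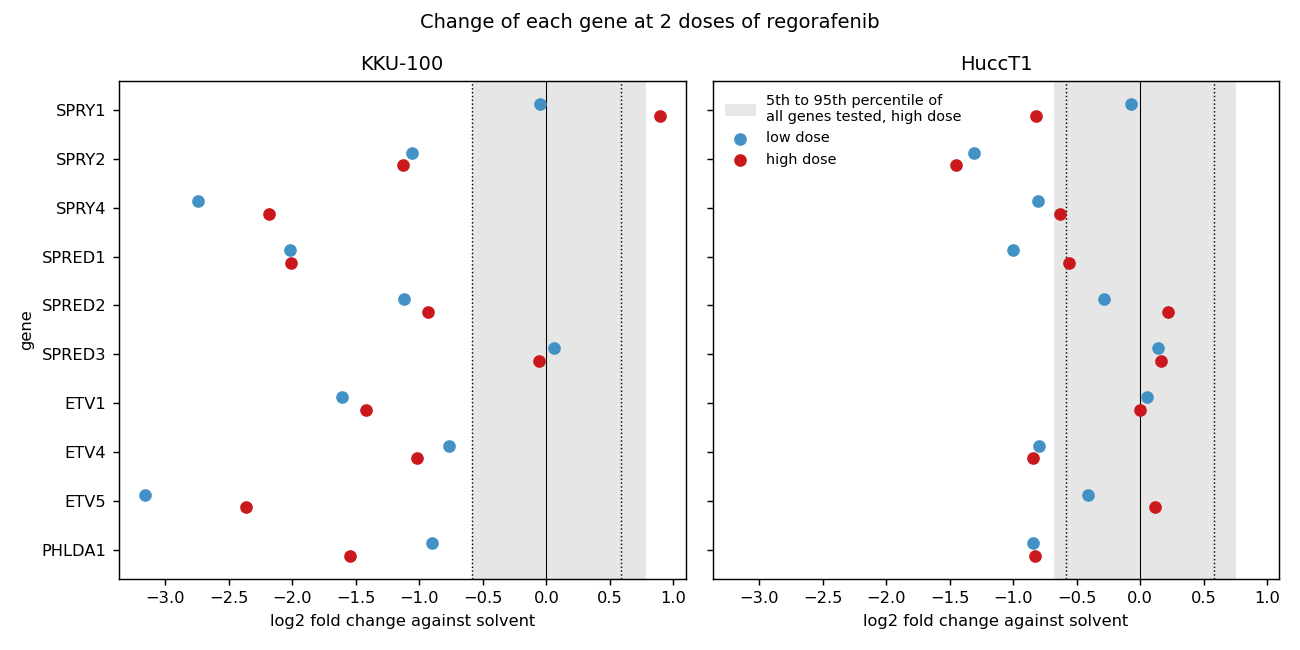
Log2 fold change of each gene against the solvent array of its line under the low dose (blue) and high dose (red), with dotted lines at 1.5-fold and a grey band for the 5th to 95th percentile of all genes tested under the high dose. ETV5 and SPRY4 lie farthest left in KKU-100, SPRY2 in HuccT1, and SPRY1 under the high dose lies on opposite sides of 0 in the 2 lines.

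Among the Sprouty genes, SPRY2 was lower in both lines at both doses. Its signal was 312 with solvent, 149.7 under the low dose and 143 under the high dose in KKU-100, and 409 with solvent, 165 under the low dose and 149.7 under the high dose in HuccT1. These are falls of 2.08-fold and 2.19-fold in KKU-100 and 2.47-fold and 2.73-fold in HuccT1, and every treated array was below both solvent arrays. SPRY2 ranked 30 from the lowest log2 fold change among 12789 genes under the low dose in HuccT1. SPRY4 fell more in KKU-100, where it read 649 with solvent, 97.0 under the low dose and 143 under the high dose, which is 6.68-fold and 4.54-fold lower. In HuccT1 it read 200.4, 115 and 129 in the same order, or 1.74-fold and 1.55-fold lower. Its 4 treated signals, 97.0 to 143, all lay below both solvent signals.

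SPRY1 did not follow them. In KKU-100 its signal was 48.9 with solvent, 47.2 under the low dose and 90.8 under the high dose, and in HuccT1 it was 163, 155 and 92.6. The low dose left SPRY1 within 1.5-fold in either line, at log2 fold changes of -0.05 in KKU-100 and -0.07 in HuccT1, and under the high dose the log2 fold changes were 0.89 in KKU-100 and -0.82 in HuccT1. Both lines had nearly the same signal under the high dose. A second SPRY1 probe set was near the filter, at 27.6 to 34.7 in KKU-100 and 33.5 to 66.9 in HuccT1, and did not show these high-dose changes, with log2 fold changes of 0.17 in KKU-100 and -0.19 in HuccT1. At the low dose in HuccT1 it was higher, by 0.81.

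SPRED1 was lower in 3 of the 4 comparisons and close to the cutoff in the fourth. In KKU-100 it read 927 with solvent, 229 under the low dose and 229.9 under the high dose, about 4-fold lower at either dose (4.04 and 4.03). In HuccT1 it read 399.8, 199.7 and 271, which is 2.0-fold and 1.47-fold lower. All 4 treated signals were below both solvent signals. A second probe set of SPRED1 above the filter read 197, 88.1 and 106 in KKU-100 and 167, 115 and 128 in HuccT1, the same order of arrays within each line but with smaller changes, which in HuccT1 stayed within 1.5-fold.

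SPRED2 was lower in KKU-100 alone by the 1.5-fold cutoff. It read 628 with solvent, 289 under the low dose and 329.7 under the high dose there, 2.17-fold and 1.90-fold lower, and 329, 269 and 384 in HuccT1, where the log2 fold changes were -0.29 and 0.22. The HuccT1 solvent signal was thus close to the treated signals of KKU-100. The other 2 SPRED2 probe sets read only 7.2 to 10.5 on all 6 arrays and were below the filter. SPRED3, which has 1 probe set, stayed between 59.9 and 65.0 in KKU-100 and between 58.7 and 65.8 in HuccT1, and no comparison moved it past 1.5-fold.

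Of the PEA3 factors, ETV5 had the largest fall of the 10 genes. Its signal in KKU-100 was 1384 with solvent, 155 under the low dose and 268 under the high dose, which is 8.96-fold and 5.16-fold lower. In HuccT1 it was 200.4, 151 and 217, with log2 fold changes of -0.41 and 0.12, both within 1.5-fold. ETV5 ranked 11 from the lowest among 12694 genes under the low dose in KKU-100 and 12 under the high dose. The other 3 ETV5 probe sets above the filter fell too in KKU-100, with log2 fold changes of -2.83 to -2.37 under the low dose and -2.28 to -2.09 under the high dose.

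ETV1 was low in HuccT1 and stayed within 1.5-fold there, with signals of 39.0 with solvent, 40.6 under the low dose and 39.0 under the high dose. In KKU-100 it read 190.4, 62.5 and 71.1, or 3.05-fold and 2.68-fold lower. On this probe set the treated KKU-100 arrays still read above all 3 HuccT1 arrays. Of 3 other ETV1 probe sets above the filter, 2 were lower in KKU-100, with log2 fold changes of -0.76 and -0.74 under the low dose and -0.98 and -0.80 under the high dose, and 1 stayed within 1.5-fold. On those 2 probe sets the treated KKU-100 arrays read below all 3 HuccT1 arrays. The first read 33.3 and 28.6 there, against 43.1 to 48.9 in HuccT1. The second read 32.8 and 31.5, against 39.8 to 44.6. The probe set that stayed within 1.5-fold read 27.3 and 29.2 in treated KKU-100, against 28.6 to 40.8 in HuccT1. ETV4 was lower in both lines at both doses. It read 95.7 with solvent, 56.2 under the low dose and 47.1 under the high dose in KKU-100, and 162, 93.7 and 90.3 in HuccT1. These are falls of 1.70-fold and 2.03-fold in KKU-100 and 1.73-fold and 1.8-fold in HuccT1. The treated HuccT1 arrays were thus near the solvent level of KKU-100. The second ETV4 probe set was past the cutoff in KKU-100 (log2 fold changes of -0.76 and -0.60) but not in HuccT1 (-0.44 and -0.51).

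PHLDA1 was lower in all 4 comparisons. It read 2055 with solvent, 1102 under the low dose and 704 under the high dose in KKU-100, and 3356, 1872 and 1893 in HuccT1. It was thus 1.86-fold and 2.92-fold lower in KKU-100 and 1.79-fold and 1.77-fold lower in HuccT1. PHLDA1 has 6 probe sets, and in KKU-100 all 6 were lower at both doses, and in HuccT1 4 were lower under the low dose and 6 under the high dose. The largest of these falls were log2 fold changes of -2.24 in KKU-100 and -1.52 in HuccT1, both under the high dose. Over all 10 genes, 20 of the 24 probe sets above the filter were lower at each dose in KKU-100, against 9.05% of all probe sets above it under the low and 7.4% under the high dose, and 1 (of SPRY1) was higher under the high dose. In HuccT1, 8 were lower under the low and 10 under the high dose, against 4.5% and 7.58%, and 1 (of SPRY1) was higher under the low dose.

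**Figure D3:**
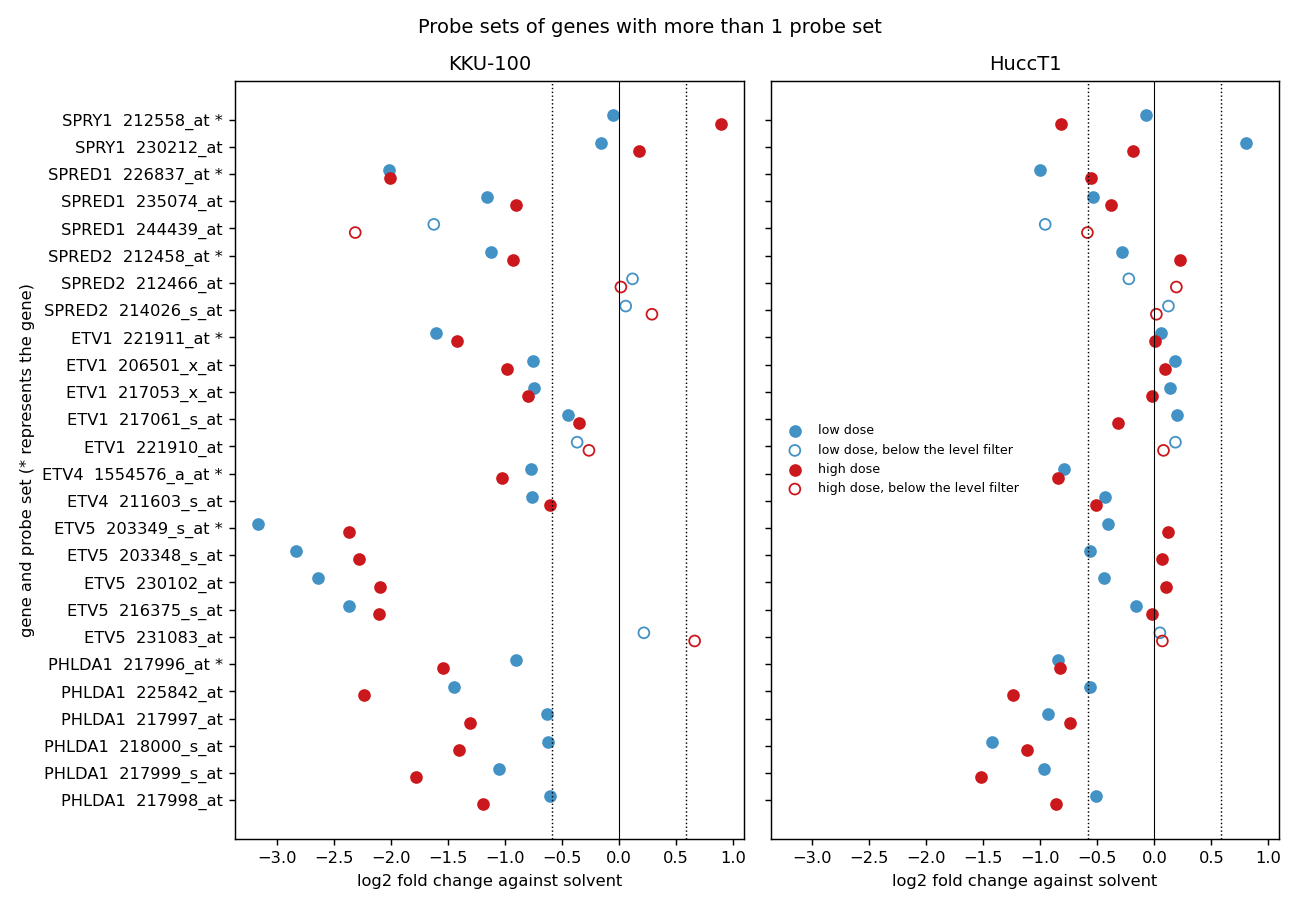
Log2 fold change against solvent of every probe set of the 7 genes that have more than 1 (rows), under the low dose (blue) and high dose (red) in KKU-100 (left) and HuccT1 (right). Open circles are below the level filter, an asterisk marks the probe set that represents the gene, and dotted lines mark 1.5-fold. The filled ETV5 and PHLDA1 points lie left of the cutoff in KKU-100, and the SPRED2 fall rests on 1 probe set.

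The higher dose did not give a larger fall in general. Within each line, the largest difference between the doses was that of SPRY1. Its high-dose signal was above the low-dose signal by a log2 difference of 0.94 in KKU-100 and below it, at -0.75, in HuccT1. In KKU-100, ETV5 and SPRY4 were less reduced under the high than under the low dose, by a log2 difference of 0.80 and 0.56, and PHLDA1 was more reduced, by -0.65. In HuccT1 the high-dose signals of ETV5, SPRED2 and SPRED1 were above the low-dose signals by 0.53, 0.51 and 0.44, within 1.5-fold. SPRY2 and ETV4 also differed by less than 1.5-fold between the doses in either line. With dose rank as a linear term and the line as a block, limma called 0 of the 10 genes and 0 of all 12833, and 4 were lower (SPRY2, SPRED1, ETV4 and PHLDA1) at an unadjusted p under 0.05, against 4.31% of all genes.

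The genes with the largest falls under the low dose in KKU-100 (ETV5, SPRY4, SPRED1 and ETV1) had higher solvent levels there than in HuccT1. In solvent, KKU-100 over HuccT1 was 6.91 for ETV5, 4.88 for ETV1, 3.24 for SPRY4, 2.32 for SPRED1 and 1.91 for SPRED2. It was 0.612 for PHLDA1, 0.589 for ETV4 and 0.299 for SPRY1. The PHLDA1 ratio rests on its representative probe set, since 4 of its 6 probe sets read higher in solvent-treated KKU-100, by 1.04 to 1.33 times. So 5 genes were higher and 3 lower in KKU-100 past 1.5-fold, against 22.7% and 23.9% of 13450 genes. At the low dose the ratios were 1.02 for ETV5, 0.843 for SPRY4, 1.15 for SPRED1 and 1.07 for SPRED2, and under the high dose 1.23, 1.11, 0.847 and 0.859 for the same genes. ETV1 kept ratios of 1.54 and 1.82 by its representative probe set. The other ETV1 probe sets above the filter had ratios of 1.04 to 1.36 in solvent. Under the low dose these were 0.668 to 0.735, and under the high dose 0.623 to 1.02. The second SPRED1 probe set above the filter had a solvent ratio of 1.18. At the low dose 1 gene was higher and 3 were lower (22.7% and 20.5% of all genes), and under the high dose 1 and 2 (22.7% and 20.6%). The median absolute log2 difference between the lines for the 10 genes was 1.07 in solvent, 0.22 under the low dose and 0.23 under the high dose, beside 0.52, 0.48 and 0.48 for all genes. The fold changes within a line and these ratios use the same solvent arrays and are not independent of each other. Of 17 ERK output genes, 4 (EGR1, FOS, IER2 and TRIB1) were higher past 1.5-fold and 6 lower in solvent-treated KKU-100 than in solvent-treated HuccT1. EGR1 read 7841 against 380, and HMGA2 188 against 1770.

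**Figure D4:**
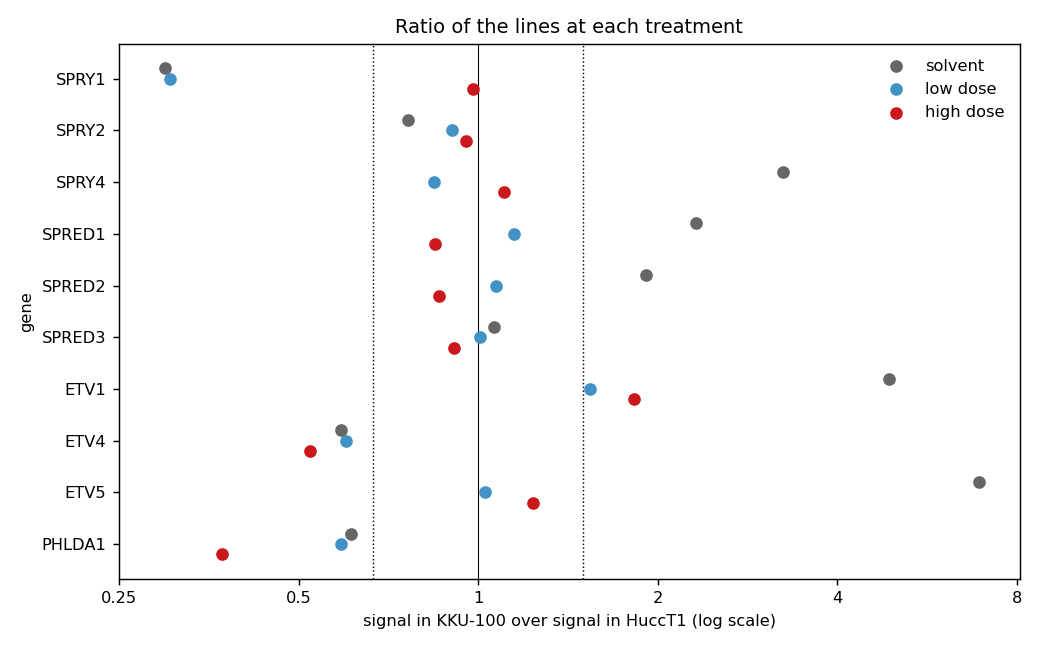
Signal of KKU-100 over HuccT1 (log axis) for each gene on the solvent, low-dose and high-dose arrays, 1 pair of arrays per point. The solvent ratios run from 0.299 for SPRY1 to 6.91 for ETV5, and the ETV5, SPRY4, SPRED1 and SPRED2 ratios lie near 1 at both doses.

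The only test of a dose that the design allows takes the 2 lines as repeats, in a limma fit over all 6 arrays with the line as a block and 2 residual degrees of freedom. With Benjamini-Hochberg adjustment over 12833 genes, limma called 0 of the 10 genes at either dose, and 0% of all genes. The smallest adjusted p over all genes was 0.299 under the low and 0.0793 under the high dose. Before adjustment, 6 of the 10 genes were lower under the low dose (ETV4, ETV5, PHLDA1, SPRED1, SPRY2 and SPRY4), against 5.07% of all genes, and 5 under the high dose (the same without ETV5), against 4.9%, each with p under 0.05. The study's methods name a Student's t-test without pairs, and taking the lines as pairs was a choice made here. This paired t-test had 2 genes under 0.05 under the low dose (ETV4 and PHLDA1) and 0 under the high dose. Of all genes, 2.3% and 2.36% were lower in it with p under 0.05. After adjustment the paired t-test had 0 of the 10 genes at either dose, and 0 of all genes under the low and 1 under the high dose. In limma under the high dose, SPRY2 had a log2 fold change of -1.29 (SE 0.17) and an adjusted p of 0.0944. ETV4 and PHLDA1 followed in limma, with -0.93 (SE 0.15) and -1.19 (SE 0.20) and an adjusted p of 0.128 each. ETV5, whose lines moved most unequally, had -1.13 (SE 0.67) and an adjusted p of 0.496 in limma. Without the HuccT1 solvent array limma called 8 genes lower under the low and 7 under the high dose, against 4.79% and 1.86% of all genes. Without the KKU-100 solvent array it called 0 and 1 (SPRY2), against 0.039% and 1.86%. Each of these fits has solvent measured in a single line.

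Whether the lines responded differently was tested by a line-by-treatment term in limma, with both doses taken as repeats of treatment. The residuals of this fit come only from differences between the 2 doses within a line, so the spread of solvent arrays is not measured. The line-by-treatment term is read with that limit. In limma it called 0 of the 10 genes, and 0% of all genes, with a smallest adjusted p over all genes of 0.424. At an unadjusted p under 0.05, the KKU-100 response was lower for 4 genes, against 2.98% of all genes. In this limma fit the KKU-100 response minus the HuccT1 response was -2.62 (SE 0.58) for ETV5, -1.75 (SE 0.41) for SPRY4, -1.54 (SE 0.25) for ETV1 and -1.23 (SE 0.35) for SPRED1 on the log2 scale, each with an adjusted p of 0.601. For SPRY2 and ETV4 it was 0.28 (SE 0.27) and -0.08 (SE 0.27), with adjusted p of 0.809 and 0.957 in limma.

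Over the 3 treatments the line term of limma (KKU-100 minus HuccT1) called 3 genes lower in KKU-100, against 26.3% of all genes, and 1 higher, against 27.9%. ETV4 was lower by a log2 difference of -0.81 (SE 0.12, adjusted p 0.00314), PHLDA1 by -0.97 (SE 0.16, adjusted p 0.0045) and SPRY1 by -1.16 (SE 0.36, adjusted p 0.0411). ETV1 was higher by 1.26 (SE 0.33, adjusted p 0.0240). The limma call of SPRY1 was lost without the solvent or the low-dose array of either line, with adjusted p of 0.0828 to 0.191, and with eBayes without a trend, with an adjusted p of 0.0536. With each gene taken as the median of its probe sets, only ETV4 stayed called, and ETV1, PHLDA1 and SPRY1 had limma differences of -0.081, -0.11 and -0.84, with adjusted p of 0.760, 0.675 and 0.0577.

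Lists of other pathway genes are set beside the feedback genes as a description. The lists were chosen with earlier results of these data known, so their counts are not independent support. Of all genes tested, 7.32% were lower under the low and 4.86% under the high dose in KKU-100. In HuccT1 these shares were 3.32% and 6.44%. Under the high dose in KKU-100, 9.44% of all genes tested were higher. The 95th percentile of the log2 fold changes of all genes was 0.79 and 0.78 at the low and high dose in KKU-100. In HuccT1 that percentile was 0.51 and 0.75, beside a cutoff of 0.585. Of 17 tested ERK output genes, 12 were lower under the low and 13 under the high dose in KKU-100, where LIF, a cytokine, was higher under the high dose, and 15 and 14 in HuccT1, with none higher. Their median log2 fold changes were -0.93 and -1.06 in KKU-100 and -1.0 at both doses in HuccT1. So in HuccT1 the ERK output genes had a lower median than the 10 feedback genes, and in KKU-100 a less negative one. DUSP6, the phosphatase that acts on ERK, changed by a log2 of -4.76 and -3.46 in KKU-100 and by -1.99 and -2.82 in HuccT1. MAFF, a small MAF factor, had -4.08 and -3.01 in KKU-100 and -1.30 and -1.51 in HuccT1. FOS had -4.92 and -4.98 in KKU-100 and -0.74 and -0.17 in HuccT1. EGR1 had -7.76 and -4.41 in KKU-100, from 7841 with solvent to 36.1 under the low dose, and -1.83 and -0.86 in HuccT1. HMGA2 had -1.60 and -1.54 in KKU-100 and -0.96 and -2.49 in HuccT1. DUSP4 had 0.42 and -0.59 in KKU-100 and -1.35 and -2.89 in HuccT1. MYC had 0.33 and -0.15 in KKU-100 and -1.11 and -1.66 in HuccT1.

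Among other feedback regulators of receptors and RAS in KKU-100, 3 of 9 were lower under the low and 2 under the high dose, with ERRFI1, an inhibitor of EGF receptor kinases, at -0.93 and -1.0 and SOCS3, a brake on cytokine receptors, at -0.98 and -1.25. In HuccT1, 1 of 8 was lower at each dose and 1 was higher under the high dose. Among 8 tested partners of the Sprouty and Spred proteins, SIAH2, an enzyme that marks Sprouty for degradation, was lower in KKU-100 under the low dose and higher in HuccT1 under the high dose, and no other passed the cutoff. NF1, which encodes neurofibromin, read 6.4 to 8.0 on all arrays, below the filter. This is the reading of 1 probe set and does not show that NF1 RNA was absent. Among 7 regulators of the PEA3 factors, ATXN1, whose protein works with CIC, was lower in KKU-100 at both doses (-0.93 and -0.65), and DET1, part of a degradation complex for ETV factors, was higher in HuccT1 under the high dose. SIAH2, DET1, LIF and PHLDA2 were picked after their values were seen.

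Other ETS factors moved in both directions. Of 15 tested in KKU-100, 5 were lower and 3 higher under the low dose and 4 and 2 under the high dose. ETS1 had log2 fold changes of -2.17 and -0.92 and ELF4 0.91 and 1.11. Of 16 tested in HuccT1, 1 was lower and 1 higher under the low dose and 2 and 1 under the high dose, with ELK3 at -0.61 at both doses and ELF3 at 1.11 and 0.69. Of the 2 other PHLDA genes, PHLDA2 was lower under the low dose in HuccT1 (-0.94), and no other comparison of them passed the cutoff. Of 12 tested receptor tyrosine kinases, 0 passed the cutoff in HuccT1, and in KKU-100 FGFR3 was lower (-0.78 and -0.90) and ERBB3 higher (1.71 and 1.21) at both doses.

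**Figure D5:**
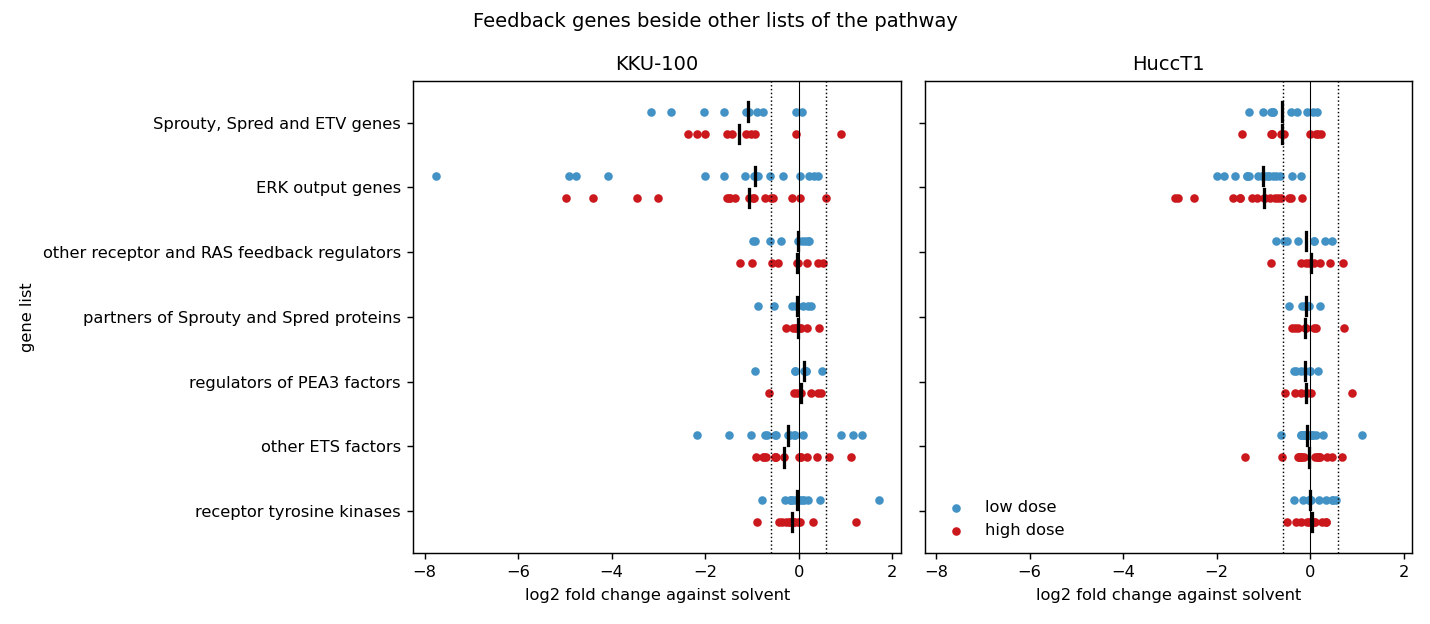
Log2 fold change against solvent of each tested gene (points) of the feedback genes and of 6 other lists, under the low dose (blue) and high dose (red), with the median of each as a black bar and dotted lines at 1.5-fold. The medians of the feedback genes and the ERK output genes lie between -0.60 and -1.27 in both lines, and those of the other 5 lists lie between -0.32 and 0.10, lowest for the other ETS factors in KKU-100.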

How the data were processed

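The deposited data are signal intensities on a linear scale, 1 per probe set and array. The authors' processing notes name MAS5, with no version, and their methods section names GeneSpring for log2 normalization. How the arrays were scaled is not given in the sources used here. Their quantiles differ by at most 0.07 on the log2 scale, so the intensities were only log2 transformed. The 62 control probe sets were left out. Of 54613 others, 41091 carry 1 symbol, 1801 several and 11721 none, by the array's annotation. Depth does not apply to arrays, and their number limits the precision.

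The probe set of highest mean signal stood for its gene. Genes were filtered at the 50th percentile of mean log2 signal and called past 1.5-fold. Tests used limma 3.58.1 in R 4.3.3 (lmFit, eBayes with a trend, 3.42 prior degrees of freedom) and were adjusted by Benjamini-Hochberg at 0.05, after a run on simulated data. The p-values measure only the spread between these arrays. The members and the 10 lists, with 99 of 104 genes measured and 5 not analysed here, were chosen with earlier results of these data known. Named list genes are up to 4 per line with the largest high-dose change among those past the cutoff in 1 direction at both doses. A selection of these is printed. Alternatives were quantile normalization, median centring, a floor at the 20th percentile, no filter or the 60th percentile, and other probe set rules. Others were a 2-fold cutoff, eBayes without trend or robust, leaving out each array, dose rank and the paired t-test. Figures used Python 3.11.15 with matplotlib 3.10.9.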

Additional observations from a re-analysis of the deposited data

Results flagged for a closer look

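SPRY1 under the high dose moved in opposite directions in the 2 lines. Its log2 fold change in KKU-100 minus that in HuccT1 was 1.71, from 0.89 in KKU-100 and -0.82 in HuccT1, with 1 array for each line and treatment, and the difference at this dose was not tested. With both doses taken as repeats, the limma difference of the responses was 0.87 (SE 0.70), with an adjusted p of 0.784. The second SPRY1 probe set gave 0.17 in KKU-100 and -0.19 in HuccT1.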

How the results depend on the processing

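Counts of the feedback genes past the cutoff moved by over 1.5 times with a 2-fold cutoff, to 2 under the low and 1 under the high dose in HuccT1. With the median over all probe sets, limma called 1 gene (ETV4) between the lines, the SPRED2 log2 fold changes in KKU-100 turned to 0.12 under the low and 0.13 under the high dose, because its other probe sets lie below the filter, and the ETV1 difference of KKU-100 minus HuccT1 turned to -0.081. When each array was left out in turn, limma called 0 to 8 genes under the low dose, 0 to 7 under the high dose and 3 to 4 between the lines, and 0 for a different response, which could not be fitted without a solvent array. The other 88 counts of genes past the cutoff or called by limma, leaving out 1 array included, lay within 1.5 times those reported. The labels give no replicate numbers to pair, and the line is the pairing in the dose fits and the paired t-test. Levels near the filter, as for ETV1 in HuccT1 and SPRY1 in KKU-100, limit what a fold change can show.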

Other observations

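The genes whose profile over the 6 arrays, centred within each line, was most like the mean of the 10 feedback genes were SPRY4-IT1, a long noncoding RNA, ANKRD36B, CCNE2, a cyclin of S-phase entry, TP53RK, a protein kinase, and MAFF, by Pearson r of 0.993, 0.993, 0.992, 0.987 and 0.987 over 6 arrays, among 1142 candidate genes. The points share their solvent arrays, and the values are a description. SPRY4-IT1 read 157 with solvent, 44.1 under the low dose and 56.9 under the high dose in KKU-100, and 67.1, 35.8 and 39.9 in HuccT1, with the treated arrays below both solvent arrays, as for SPRY4. Its gene lies within that of SPRY4, and whether its probe set also reads SPRY4 RNA was not tested. CCNE2 read 623, 230.1 and 235 in KKU-100 and 607, 380 and 373 in HuccT1.

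Among the 10 genes, the correlation of each with the mean of the other 9 was 0.81 to 0.99 for 8 of them over the same 6 arrays, highest for SPRY4. It was -0.23 for SPRY1 and -0.38 for SPRED3. A high value does not mean a change in both lines. ETV1, ETV5 and SPRED2 had 0.90, 0.90 and 0.86, and stayed within 1.5-fold in HuccT1. The centred mean of the 10 genes ran from 0.84 with solvent to -0.50 under the low dose in KKU-100. In HuccT1 it ran from 0.33 to -0.20.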
